A study of Mus musculus with 23 samples.

Results

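The hearts of mice killed 1 day after isoproterenol were compared with hearts of untreated mice from the same arm of the study. The comparison takes the 3 libraries labelled ISO day 1 against the 4 labelled ISO baseline, out of 23 heart libraries in 6 groups, and covers the 15732 genes that passed a filter on low counts. ISO day 1 mice had received isoproterenol at 300 mg/kg, and ISO baseline mice had received nothing. Mice of both groups were female, wild-type, of the inbred strain C57BL/6J and aged 10 weeks, and each library is polyadenylated RNA of a heart. The arm also holds a day 7 group of 4 mice at the same dose. A parallel arm of female C57BL/6J mice of that age received LPS (lipopolysaccharide, from the outer membrane of bacteria) at 2.5 mg/kg, and its LPS day 1 and LPS baseline groups (4 libraries each) are used below where the agents are compared. Since baseline mice were untreated, the effects of injection and handling cannot be told apart from those of isoproterenol.

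Isoproterenol activates the beta-adrenergic receptors of cardiomyocytes, which couple through a stimulatory G protein to adenylyl cyclase, and the resulting cyclic AMP activates protein kinase A. The kinase phosphorylates calcium channels, phospholamban and contractile proteins, so that the heart beats faster and harder. Receptor kinases, arrestins and phosphodiesterases limit the signal, and high doses of the drug are a standard way to injure cardiomyocytes in rodents.

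ISO day 1 libraries held 24193737 to 29638143 reads assigned to genes, and ISO baseline libraries held 20910394 to 28628313. With edgeR's quasi-likelihood test (p adjusted by Benjamini-Hochberg over all genes, under 0.05), 65.7% of genes tested were called, 32.9% higher and 32.8% lower, and the counts of each gene list below are to be read against those shares. A gene is said to rise or fall only where it was called. A stricter test against a fold of 1.5 called 12.8% of genes as higher and 14.0% as lower. Libraries of the groups did not overlap in CPM (counts scaled to library size by the trimmed mean of M values) for 66.7% of genes. The median log2 change of all genes, ISO day 1 over ISO baseline, was -0.01, and every log2 change below has that direction. The number in brackets after a gene is its log2 change with a standard error (SE). The SE was derived as the size of the log2 change over the square root of the test's F statistic, and so is an approximation. Genes called higher held 22% of the summed TPM (a transcript level corrected for gene length) at ISO day 1 and 11.3% at ISO baseline. Genes called lower held 26.4% at ISO day 1 and 35.2% at ISO baseline. The size of the change varied between the ISO day 1 hearts. Among 2009 genes past the 1.5-fold test as higher, replicate 3 lay nearest to baseline in 1323 and replicate 2 farthest in 1094, and among 2201 as lower the counts were 1176 and 1090. Their median log2 distance from the baseline mean was 1.27, 1.34 and 1.14 in replicates 1, 2 and 3 for higher genes, and -1.33, -1.39 and -1.20 for lower genes. Levels are relative to all RNA of a heart, and in whole hearts fewer cells of a type and less RNA per cell cannot be told apart.

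**Figure D1:**
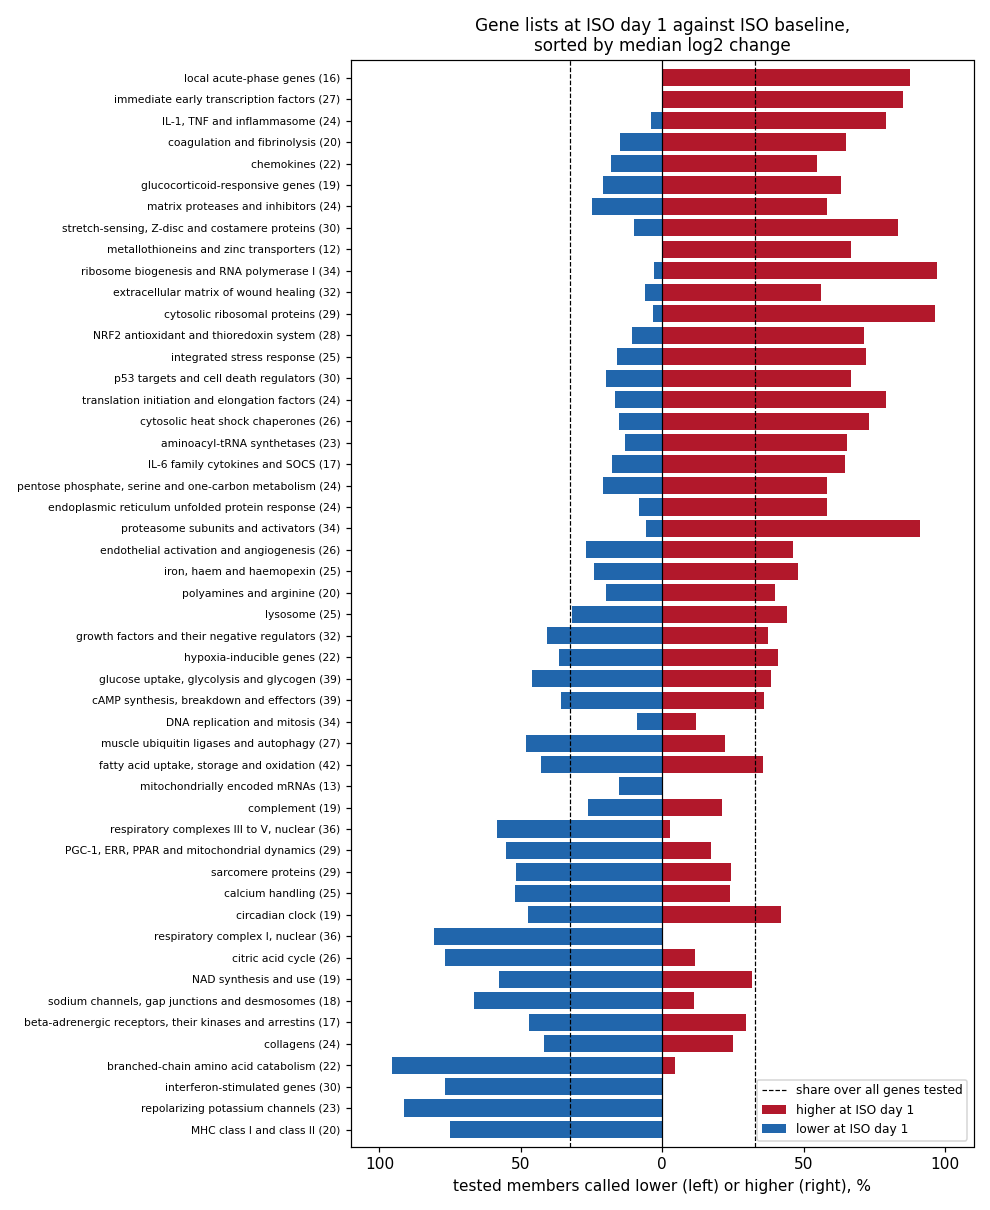
Share of the tested members of each of 50 gene lists called higher (bars to the right) or lower (bars to the left) at ISO day 1 against ISO baseline (edgeR, adjusted p under 0.05), sorted by the median log2 change of the list, with the number of members tested beside each name. Dashed lines mark the shares over all genes, 32.9% higher and 32.8% lower, and most lists depart from them in 1 direction, from ribosome biogenesis (33 of 34 higher) to repolarizing potassium channels (21 of 23 lower).

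Single genes at several steps of the drug's own signalling chain changed, in both directions. Of 17 tested genes for adrenergic receptors and the proteins that shut them off, 5 rose and 8 fell (median -0.48). The 6 receptor genes that were called all fell, while 4 of 5 receptor kinase genes rose. Adrb1, the main beta receptor of cardiomyocytes, had 17.6, 19.5 and 16.7 CPM at ISO day 1 and 26.7, 27.2, 29.3 and 29.6 CPM at ISO baseline, and so was lower in each treated heart than in any untreated one (-0.65, SE 0.21, adjusted p = 0.00851). The alpha-1 receptor genes Adra1a (-1.16, SE 0.19) and Adra1b (-0.96, SE 0.14) fell as well. Grk5, a kinase that phosphorylates active beta receptors, had 78.8, 92.4 and 68.2 CPM at ISO day 1 and 30.9, 35.8, 33.6 and 37.5 CPM at ISO baseline. All 3 treated hearts lay above all 4 untreated ones, and the change was beyond the spread between hearts (1.21, SE 0.13, adjusted p = 4.59e-08). Grk3, another receptor kinase, had 28.9, 31.4 and 34.5 CPM at ISO day 1 and 8.23, 10.1, 11.8 and 9.87 CPM at ISO baseline, again without overlap (1.66, SE 0.10). Rgs2, which speeds the shut-off of G proteins, also rose (0.86, SE 0.17), and the arrestin gene Arrb1 was not called (-0.13, SE 0.15). Adrb3 and Adra2a had too few reads to be tested.

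Downstream of the receptor, 14 of 39 genes of cyclic AMP synthesis, breakdown and action rose and 14 fell (median -0.08), shares close to those over all genes. The phosphodiesterases of the type 4 family, which degrade cyclic AMP, moved apart. Pde4a had 20.96, 19.3 and 21.1 CPM at ISO day 1 and 109.8, 107, 95.3 and 104 CPM at ISO baseline, a fall of every treated heart to below all untreated ones (-2.35, SE 0.16, adjusted p = 2.80e-11). Pde4b went the other way, with 96.3, 101 and 76.3 CPM at ISO day 1 and 23.7, 31.5, 25.9 and 27.97 CPM at ISO baseline (1.75, SE 0.32, adjusted p = 6.16e-05). Pde4d stood at a log2 change of 0.32, SE 0.14 and missed the threshold (edgeR, adjusted p = 0.0504), which it passed under 9 of 23 alternatives, DESeq2 among them. The cyclase genes Adcy5 (-0.89, SE 0.08) and Adcy6 (-0.40, SE 0.12) fell, and so did Prkaca, the main catalytic subunit of protein kinase A, with 102, 91.7 and 101 CPM at ISO day 1 and 209, 191, 198 and 197 CPM at ISO baseline (-1.02, SE 0.07). Pkia, an inhibitor peptide of the same kinase, fell further (-1.56, SE 0.09). Crem, which codes for activators and repressors that bind cyclic AMP response elements, rose (1.14, SE 0.15), and so did Sik1, a kinase that restrains coactivators of the factor CREB (1.52, SE 0.26). Popdc3, of a family of cyclic AMP binding membrane proteins, also rose (1.54, SE 0.09).

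Genes of electrical repolarization fell almost without exception. Of 23 potassium channel genes 0 rose and 21 fell, with a median log2 change of -1.32 against -0.01 for all genes. Kcnj3, a subunit of the acetylcholine-gated channel, had 11.3, 7.66 and 13.7 CPM at ISO day 1 and 68.4, 72.05, 73.6 and 69.9 CPM at ISO baseline, so that every treated heart lay far below every untreated one (-2.72, SE 0.24, adjusted p = 1.94e-09). Kcnv2, a modifier of voltage-gated channels, had 1.77, 2.21 and 1.08 CPM at ISO day 1 and 13.01, 13.5, 12.3 and 12.1 CPM at ISO baseline (-2.89, SE 0.25). The fall was shared by subunits of the transient outward current (Kcnd2, -1.90, SE 0.15), the delayed rectifiers (Kcnh2, -1.78, SE 0.25; Kcnq1, -1.32, SE 0.11), the inward rectifier (Kcnj2, -1.04, SE 0.19) and the sulfonylurea receptor of ATP-sensitive channels (Abcc9, -1.47, SE 0.08). ISO day 1 replicate 2 was the lowest treated heart for Kcnj3, Kcnd2, Kcnh2, Kcnq1, Kcnj2 and Abcc9. Of 18 genes for sodium and pacemaker channels, gap junctions and desmosomes, 2 rose and 12 fell. Hcn4, the main pacemaker channel, fell (-2.27, SE 0.16), and the main ventricular connexin gene Gja1 was not called (0.11, SE 0.12).

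Calcium handling changed in both directions, with 6 of 25 genes higher and 13 lower. Pln codes for phospholamban, the brake on the sarcoplasmic calcium pump that protein kinase A releases. It had 1504, 1127 and 1738 CPM at ISO day 1 and 3517, 3416, 3577 and 3331 CPM at ISO baseline, and every treated heart lay below every untreated one (-1.25, SE 0.13, adjusted p = 2.57e-08). The release channel gene Ryr2 fell by far less (-0.27, SE 0.09). The pump gene Atp2a2 stood at -0.28, SE 0.10, a call that was lost without ISO day 1 replicate 2 (-0.22, adjusted p = 0.0848). The L-type channel gene Cacna1c (-0.95, SE 0.07) and the T-type channel gene Cacna1g (-2.27, SE 0.14) fell. Slc8a1, the sodium-calcium exchanger, rose, with 653, 722 and 603 CPM at ISO day 1 and 384, 383, 354 and 372 CPM at ISO baseline (0.82, SE 0.11), and so did Sri, the calcium sensor sorcin (1.34, SE 0.07).

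The sarcomere list and the list of stretch-sensing, Z-disc and costamere proteins differed in direction. The Z-disc protein Tcap was filed in the sarcomere list. Of 29 sarcomere genes 7 rose (4 without ISO day 1 replicate 3) and 15 fell (median -0.28), whereas of 30 genes for stretch-sensing, Z-disc and costamere proteins 25 rose and 3 fell (median 1.07). Tcap, the titin cap at the Z-disc, had 201, 166 and 254 CPM at ISO day 1 and 1291, 1201, 1351 and 1184 CPM at ISO baseline, the largest loss of the sarcomere list after Lmod3 (-2.60, SE 0.13, adjusted p = 1.01e-13). Lmod3, which elongates thin filaments, had 8.54, 7.08 and 10.9 CPM at ISO day 1 and 92.8, 90.5, 91.9 and 84.3 CPM at ISO baseline (-3.35, SE 0.19). Mybpc3, the cardiac myosin-binding protein, had 1579, 1540 and 1579 CPM at ISO day 1 and 3974, 3652, 3993 and 3583 CPM at ISO baseline (-1.28, SE 0.08), a fall with little spread among the treated hearts. Myh6, the main myosin heavy chain of the mouse heart, stood at -0.32, SE 0.10, and its groups overlapped through ISO day 1 replicate 3. That call was lost without ISO day 1 replicate 1 (-0.27, adjusted p = 0.0527) or replicate 2 (-0.20, adjusted p = 0.0973). Acta1, the skeletal isoform of actin, rose (1.6, SE 0.44), as did Actn2, the muscle alpha-actinin (0.69, SE 0.07). Ankrd1, a stretch-responsive protein of the Z-disc and nucleus, had 4171, 5240 and 3935 CPM at ISO day 1 and 460.1, 348, 456 and 348 CPM at ISO baseline (3.46, SE 0.29, adjusted p = 5.53e-10). Xirp2, which remodels with intercalated discs, had 1476, 1910 and 1696 CPM at ISO day 1 and 596, 589.9, 595 and 625 CPM at ISO baseline (1.49, SE 0.11), and Des, the muscle intermediate filament, had 4111, 5033 and 4855 CPM at ISO day 1 and 2186, 2174, 2358 and 2103 CPM at ISO baseline (1.08, SE 0.10). Myl7, the atrial light chain, must be read apart from these. It had 0.259, 0.034 and 9.58 CPM at ISO day 1 and 0.334, 0.1455, 0.111 and 0.19 CPM at ISO baseline, so that its call (4.02, SE 1.10) rested on ISO day 1 replicate 3. Without that library its log2 change was -0.51, adjusted p = 0.726. Myl4, the other atrial light chain, followed the same pattern, with 1.596, 2.18 and 12.8 CPM at ISO day 1 and 1.63, 0.824, 1.19 and 1.29 CPM at ISO baseline (2.13, SE 0.48). Its log2 change was 0.61, adjusted p = 0.11, without that library. The part of atrial tissue in that library was not tested.

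**Figure D2:**
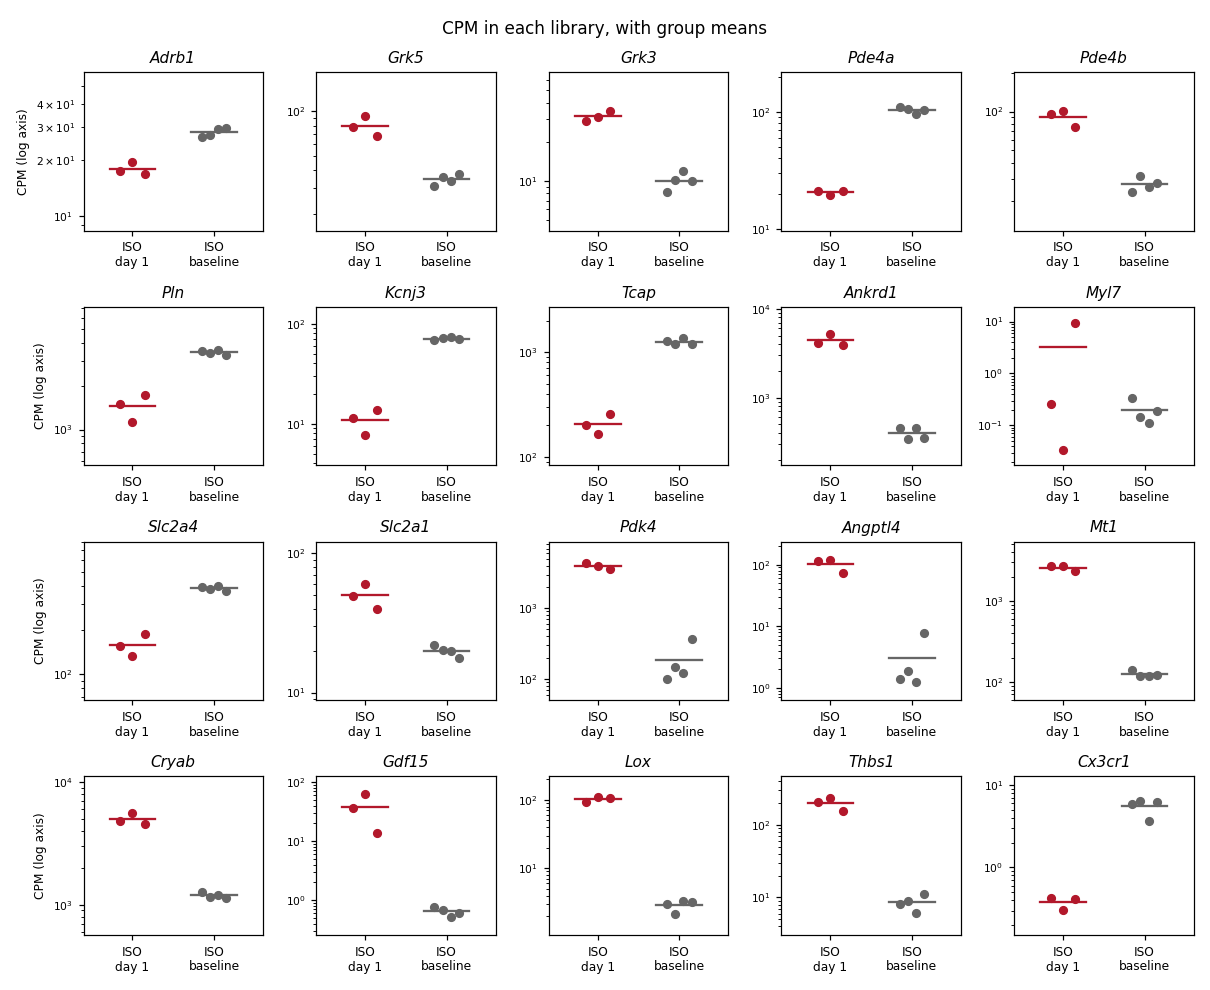
CPM in each library (log axis) for 20 genes, with the 3 ISO day 1 libraries at the left and the 4 ISO baseline libraries at the right of each panel, and bars at the group means. In the panels other than Myl7 the groups do not overlap, and for Myl7 1 treated library alone stands apart.

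Several enzymes and structural proteins exist as a form typical of striated muscle and a form used in many tissues, and the forms moved apart. Of 27 pairs of a gene entered as muscle-type and a broadly expressed paralog, the muscle gene fell and its counterpart rose in 13, and the reverse held in 0. Among the 13 is lactate dehydrogenase, entered with Ldhb (-0.57) as the muscle-type gene and Ldha (0.28) as its counterpart. Ldhb is the heart form, but Ldha prevails in skeletal muscle, so with the labels exchanged that pair would be a reverse case. Both rose in 5 pairs, both fell in 3, and in 6 at least 1 gene was not called. The pairs were drawn up after the values were known and Pfkm stands in 2 of them, so the counts are a description. Among the glucose transporters, Slc2a4, the insulin-responsive form, had 78.2 ± 10.4 TPM at ISO day 1 (SD, n = 3) and 194 ± 3.69 TPM at ISO baseline (SD, n = 4), and Slc2a1, the basal form, had 20.7 ± 5.34 TPM at ISO day 1 (SD, n = 3) and 7.61 ± 0.47 TPM at ISO baseline (SD, n = 4). Slc2a1 thus made up 21% of the pair's TPM at ISO day 1 and 3.77% at ISO baseline. The share of Pfkp in the phosphofructokinase pair with Pfkm was 26.4% at ISO day 1 and 4.87% at ISO baseline, and that of Pgam1 in the phosphoglycerate mutase pair with Pgam2 was 24% at ISO day 1 and 5.95% at ISO baseline. Hk1 made up 69.8% of the hexokinase pair with Hk2 at ISO day 1 and 43.8% at ISO baseline. In the ribosome, Rpl3 had 228 ± 22.8 TPM at ISO day 1 (SD, n = 3) and 64.2 ± 4.796 TPM at ISO baseline (SD, n = 4) and its muscle form Rpl3l had 109 ± 2.11 TPM at ISO day 1 (SD, n = 3) and 162 ± 7.26 TPM at ISO baseline (SD, n = 4). Talin (-1.19 for Tln2 and 0.66 for Tln1) and the actin-binding protein CAP (-0.87 for Cap2 and 0.72 for Cap1) behaved likewise. The pairs did not all follow. For creatine kinase and glycogen phosphorylase both members fell, for filamin and cofilin both rose, and dystrophin (0.07, SE 0.09) and utrophin (0.03, SE 0.09) were not called.

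**Figure D3:**
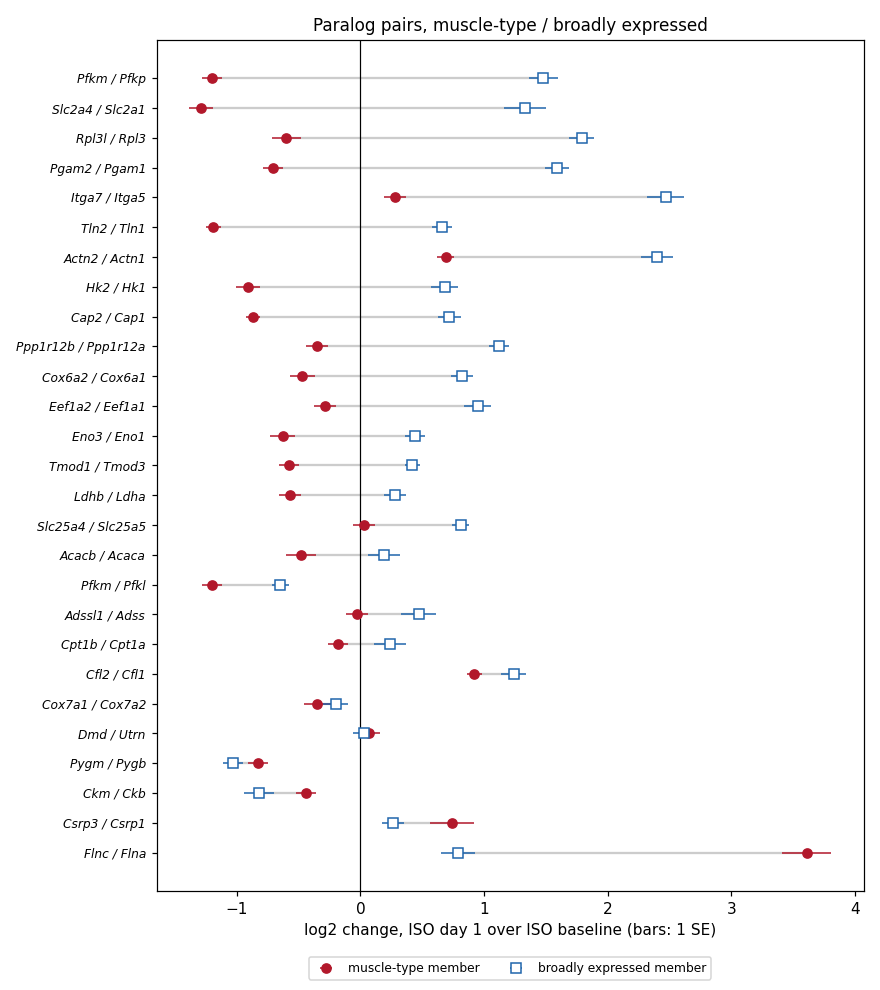
Log2 change, ISO day 1 over ISO baseline, of the muscle-type member (filled circles) and the broadly expressed member (open squares) of 27 paralog pairs, with bars of 1 SE derived from the F statistic. In 13 pairs the circle lies below 0 and the square above it with both genes called, as for the glucose transporters (-1.29 for Slc2a4 and 1.33 for Slc2a1). Lactate dehydrogenase is entered with Ldhb, its heart form, as the muscle-type member.

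Some genes that control the choice of fuel had large changes, while as lists the fuel genes lay near the shares over all genes. Of 39 genes for glucose uptake, glycolysis and glycogen 15 rose and 18 fell (median -0.04). Pdk4, the kinase that shuts pyruvate out of mitochondrial oxidation, had 4380, 3953 and 3577 CPM at ISO day 1 and 100.2, 149, 122 and 370.4 CPM at ISO baseline; ISO baseline replicate 4 was the highest untreated heart and still far below the treated ones (4.42, SE 0.49, adjusted p = 5.73e-08). Slc16a3, a lactate exporter, rose (3.31, SE 0.18), and Gbe1, the glycogen branching enzyme, had 186, 193 and 191 CPM at ISO day 1 and 45.8, 36.3, 37.4 and 39.5 CPM at ISO baseline (2.26, SE 0.09). Of 42 genes for fatty acid uptake, storage and oxidation 15 rose and 18 fell (median -0.14). Cd36, the fatty acid translocase, rose (1.04, SE 0.09), and so did the droplet coat genes Plin2 (2.16, SE 0.14), Plin4 (1.43, SE 0.12) and Plin5 (1.38, SE 0.21), while their relative Plin3 fell (-0.96, SE 0.17). Angptl4, a secreted inhibitor of lipoprotein lipase, had 116, 118 and 74.6 CPM at ISO day 1 and 1.37, 1.89, 1.26 and 7.67 CPM at ISO baseline (5.06, SE 0.57, adjusted p = 5.78e-08), and its change was 6.11 without ISO baseline replicate 4. Enzymes of oxidation that fell included Cpt2 (-1.22, SE 0.10), Acadm (-1.0, SE 0.11) and Hadh (-0.83, SE 0.10). In the mitochondrion the fall was broad and small. Of 36 nuclear genes of complex I 0 rose and 29 fell (median -0.30), and of 26 genes of the citric acid cycle 3 rose and 20 fell (median -0.30). Mitochondrially encoded mRNAs were mostly not called (0 higher and 2 lower of 13, and 1 lower without ISO day 1 replicate 2 or ISO baseline replicate 1 or 3). Pprc1, a coactivator related to PGC-1 that responds to growth signals, rose (1.52, SE 0.21), and Esrrg, a nuclear receptor of oxidative metabolism, fell (-1.20, SE 0.15). Ppargc1a itself was not called (-0.39, SE 0.22), but was when only the ISO day 1 and ISO baseline libraries were fitted (adjusted p = 0.00882). The degradation of branched-chain amino acids fell in 21 of 22 genes (median -0.86), and the exception was Bcat1, the cytosolic transaminase (1.74, SE 0.34). Ppm1k, the phosphatase that activates the pathway's dehydrogenase, fell the most (-1.85, SE 0.13).

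Lists of ribosome production and of the proteasome rose in nearly all of their genes. Of 34 genes for ribosome biogenesis 33 rose and 1 fell (median 1.03). Rrp12, a ribosome export factor, had 139, 155 and 111 CPM at ISO day 1 and 21.02, 19.4, 19.6 and 23.3 CPM at ISO baseline (2.70, SE 0.11, adjusted p = 6.86e-15), and Gnl3, the nucleolar protein nucleostemin, had 48.9, 51.2 and 32.8 CPM at ISO day 1 and 10.2, 9.65, 9.89 and 8.54 CPM at ISO baseline (2.21, SE 0.15). Polr1a, the largest subunit of RNA polymerase I, was the gene that fell (-0.28, SE 0.09), a call lost without ISO day 1 replicate 3 (-0.14, adjusted p = 0.117). Myc, a transcription factor that drives ribosome production, had 33.6, 39.01 and 20.99 CPM at ISO day 1 and 4.52, 2.96, 1.74 and 3.11 CPM at ISO baseline (3.34, SE 0.31). Cytosolic ribosomal protein genes rose in 28 of 29 (median 0.74), and the muscle form Rpl3l fell. Translation factors rose in 19 of 24 genes, among them Eif1a (2.50, SE 0.18) and the helicase gene Eif4a1 (1.82, SE 0.10), and fell in 4. Aminoacyl-tRNA synthetases rose in 15 of 23 and 5 were not called, and the 3 that fell included the mitochondrial forms Aars2 (-0.87, SE 0.08) and Iars2 (-0.46, SE 0.06). Of 20 genes of polyamines and arginine 8 rose and 4 fell, and the polyamine enzymes Odc1 (1.76, SE 0.16) and Srm (1.81, SE 0.15) were among the higher ones. Of 24 genes of the pentose phosphate, serine and one-carbon pathways 14 rose and 5 fell. The mitochondrial enzymes Mthfd2 (3.13, SE 0.29) and Mthfd1l (2.27, SE 0.37) rose, as did Psat1 of serine synthesis (2.82, SE 0.20), but Shmt2, which feeds the same mitochondrial pathway, fell (-0.37, SE 0.06). Proteasome genes rose in 31 of 34 (median 0.40), led by Psmd11, a lid subunit that promotes assembly, with 198, 216 and 179.6 CPM at ISO day 1 and 60.2, 53.5, 54.5 and 53.5 CPM at ISO baseline (1.84, SE 0.08). Cell division was not part of this rise: of 34 genes for replication and mitosis 4 rose, 3 fell and 27 were not called. Mki67, a marker of cycling cells, had 2.42, 1.804 and 1.25 CPM at ISO day 1 and 3.26, 4.36, 1.74 and 4.48 CPM at ISO baseline, and its groups overlapped (-0.92, SE 0.64). Mki67 was called as lower when only the 7 libraries of the comparison were fitted (adjusted p = 0.0219). Cdkn1a, the inhibitor of cyclin-dependent kinases p21, had 290, 286 and 259 CPM at ISO day 1 and 21.1, 16.3, 16.4 and 20.8 CPM at ISO baseline (3.90, SE 0.21, adjusted p = 4.00e-13).

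In several lists of stress genes most members rose. Metallothioneins are small proteins that bind zinc and other metals, and Mt1 stood at 6410 ± 827 TPM at ISO day 1 (SD, n = 3) and 305 ± 17.1 TPM at ISO baseline (SD, n = 4), the largest gain of mean TPM among the genes called. In single libraries it had 2695, 2668 and 2312 CPM at ISO day 1 and 142, 119.7, 119 and 122 CPM at ISO baseline, and the closely placed Mt2 had 1107, 1086 and 821 CPM at ISO day 1 and 13.7, 12.1, 7.45 and 12.8 CPM at ISO baseline. No treated heart overlapped an untreated one for either gene (log2 change 4.34, SE 0.20, adjusted p = 5.33e-14 for Mt1, and 6.45, SE 0.46, adjusted p = 4.93e-11 for Mt2). The genes lie on chromosome 8, and their promoters are shown because the metal response element bound by the zinc sensor MTF1 is known there. The windows below cover the 250 bases before each gene's start (RefSeq, GRCm38.p6), chr8:94178839-94179088 for Mt1 and chr8:94172368-94172617 for Mt2, both on the plus strand. Capitals mark matches to TGCACNC or TGCGCNC on either strand, letters found in 21.4% of all 32851 promoter windows. In the list of metallothioneins and zinc transporters 6 of the 10 genes with a window held them. Among the 6 is Slc30a1, which was not called. Within these windows Mt1 held 1 match and Mt2 held 3. Another annotation, GENCODE M21, starts Mt1 at 94179082, inside its window, and Mt2 at 94172664, past the end of its window. Bases outside the windows were not searched, so the counts are not those of whole promoters.
Mt1: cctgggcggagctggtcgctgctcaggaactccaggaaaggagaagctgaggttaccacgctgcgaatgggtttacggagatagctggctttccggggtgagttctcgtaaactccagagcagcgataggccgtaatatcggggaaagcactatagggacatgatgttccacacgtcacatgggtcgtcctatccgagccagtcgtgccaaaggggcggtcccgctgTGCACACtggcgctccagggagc
Mt2: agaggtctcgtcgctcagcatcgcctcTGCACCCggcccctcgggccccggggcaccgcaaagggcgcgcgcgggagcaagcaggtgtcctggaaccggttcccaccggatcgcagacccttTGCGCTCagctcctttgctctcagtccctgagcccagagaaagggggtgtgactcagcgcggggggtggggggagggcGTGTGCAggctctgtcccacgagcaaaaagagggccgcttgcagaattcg
Zinc importers rose as well, among them Slc39a14 (1.42, SE 0.12), Slc39a10 (1.38, SE 0.12) and Slc39a6 (1.72, SE 0.16). Slc30a4, of the exporter family, rose too (1.35, SE 0.13), while the exporter Slc30a1 was not called (0.20, SE 0.10). Slc30a1 was called when only the 7 libraries of the comparison were fitted (edgeR, adjusted p = 0.0322). Of the 12 tested genes of the list 8 rose and 0 fell.

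Chaperones rose in 19 of 26 genes and fell in 4, and the 4 with the highest TPM at ISO day 1 were all small heat shock proteins. Cryab, alpha-B crystallin, stood at 7678 ± 1220 TPM at ISO day 1 (SD, n = 3) and 1801 ± 19.9 TPM at ISO baseline (SD, n = 4), and in single libraries at 4800, 5558 and 4554 CPM at ISO day 1 and 1271, 1151, 1205 and 1140 CPM at ISO baseline (2.06, SE 0.12, adjusted p = 1.18e-12). Hspb7, its cardiac relative, had 7422, 7972 and 8311 CPM at ISO day 1 and 2370, 2106, 2244 and 2130 CPM at ISO baseline (1.84, SE 0.08). The stress-inducible genes Hspa1a and Hspa1b are near-identical copies, so the split of reads between them is uncertain. Hspa1a had 107, 87.3 and 31.2 CPM at ISO day 1 and 4.34, 5.43, 6.297 and 7.25 CPM at ISO baseline (3.68, SE 0.31), and Hspa1b had 114, 88.1 and 32.8 CPM at ISO day 1 and 3.63, 6.69, 7.48 and 8.92 CPM at ISO baseline (3.55, SE 0.32). Replicate 3 was the lowest treated heart for both, yet above every untreated one. Hsph1, a nucleotide exchange factor for these chaperones, had 177, 112 and 94.3 CPM at ISO day 1 and 33.8, 36.4, 33.1 and 37.96 CPM at ISO baseline (1.85, SE 0.14). The promoters of 3 inducible members are shown with matches to the heat shock element, GAANNTTC or TTCNNGAA, in capitals. These letters occur in 12.8% of all windows and in 10 of the 20 list members with a window. The windows are chr17:34972157-34972406 for Hspa1a and chr17:34959239-34959488 for Hspa1b, both on the minus strand, and chr5:135887669-135887918 on the plus strand for Hspb1.
Hspa1a: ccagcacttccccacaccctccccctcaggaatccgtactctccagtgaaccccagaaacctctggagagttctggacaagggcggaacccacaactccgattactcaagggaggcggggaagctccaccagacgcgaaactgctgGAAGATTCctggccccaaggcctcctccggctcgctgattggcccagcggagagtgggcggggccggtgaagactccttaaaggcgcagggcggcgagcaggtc
Hspa1b: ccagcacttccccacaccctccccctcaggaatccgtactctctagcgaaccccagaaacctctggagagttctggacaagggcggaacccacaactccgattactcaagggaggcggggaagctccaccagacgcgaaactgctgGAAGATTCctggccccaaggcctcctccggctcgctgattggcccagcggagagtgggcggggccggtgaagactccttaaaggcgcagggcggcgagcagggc
Hspb1: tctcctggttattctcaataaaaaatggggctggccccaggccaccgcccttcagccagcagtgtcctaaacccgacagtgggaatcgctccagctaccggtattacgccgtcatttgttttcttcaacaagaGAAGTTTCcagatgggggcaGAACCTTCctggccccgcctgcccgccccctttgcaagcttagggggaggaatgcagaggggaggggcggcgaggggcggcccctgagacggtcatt
The windows of Hspa1a and Hspa1b differed at 3 of 250 positions, and each held its match at the same place. Hspb1 held 2 matches.

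The integrated stress response, in which phosphorylation of the initiation factor eIF2 favours translation of ATF4, was higher in most of its target genes (18 of 25 higher and 4 lower, median 0.73). Atf4 itself had 166, 167 and 118 CPM at ISO day 1 and 46.7, 48.9, 45.1 and 45.2 CPM at ISO baseline (1.70, SE 0.15, adjusted p = 1.82e-09), and Atf3 had 29.7, 26.3 and 9.08 CPM at ISO day 1 and 2.595, 2.91, 2.704 and 4.52 CPM at ISO baseline (2.77, SE 0.38). Gdf15, a secreted stress hormone, had 36.3, 62.7 and 13.5 CPM at ISO day 1 and 0.778, 0.679, 0.519 and 0.607 CPM at ISO baseline, a range of more than 4-fold among treated hearts but without overlap (5.86, SE 0.62, adjusted p = 2.54e-08), and its change was 5.26 without ISO day 1 replicate 2. Slc7a11, the cystine importer, had 2.46, 4.66 and 1.54 CPM at ISO day 1 and 0.0741, 0.097, 0 and 0.038 CPM at ISO baseline (5.74, SE 0.58), and its partner chain Slc3a2 had 118, 136 and 129 CPM at ISO day 1 and 32.5, 34.1, 32.9 and 32.1 CPM at ISO baseline (1.96, SE 0.09). The response was not uniform, since Ddit3, the pro-apoptotic factor CHOP, was not called (0.25, SE 0.14), nor was Chac1 (0.07, SE 0.28). Stc2 (-2.87, SE 0.15) and Vldlr (-1.64, SE 0.15) fell. Promoters of 3 called members are shown because ATF4 acts through the amino acid response element, here TGATGNAA on either strand in capitals. The letters occur in 3.45% of all windows and in 7 of the 23 list members with a window, among them Chac1, which was not called, and Vldlr, which fell. The windows are chr3:50443614-50443863 for Slc7a11, chr1:191183334-191183583 for Atf3 and chr6:7693210-7693459 for Asns, an asparagine synthetase gene that also rose (2.03, SE 0.27), each on the minus strand.
Slc7a11: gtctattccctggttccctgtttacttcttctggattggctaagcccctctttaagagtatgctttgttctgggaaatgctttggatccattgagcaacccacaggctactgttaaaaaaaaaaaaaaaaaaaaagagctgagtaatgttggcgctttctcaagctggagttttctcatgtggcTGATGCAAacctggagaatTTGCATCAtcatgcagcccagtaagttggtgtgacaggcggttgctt
Atf3: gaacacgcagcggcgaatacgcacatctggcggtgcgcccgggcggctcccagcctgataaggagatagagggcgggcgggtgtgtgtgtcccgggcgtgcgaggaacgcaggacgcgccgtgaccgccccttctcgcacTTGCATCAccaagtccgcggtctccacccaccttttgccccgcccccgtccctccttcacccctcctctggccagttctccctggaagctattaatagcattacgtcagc
Asns: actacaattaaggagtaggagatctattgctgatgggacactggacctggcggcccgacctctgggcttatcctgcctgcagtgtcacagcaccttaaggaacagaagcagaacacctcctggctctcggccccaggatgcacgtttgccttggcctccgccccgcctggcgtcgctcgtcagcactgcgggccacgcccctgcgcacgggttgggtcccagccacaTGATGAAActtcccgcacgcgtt
Slc7a11 held 2 matches that do not overlap, and Atf3 and Asns held 1 each. A match is a run of letters and says nothing of binding in these hearts. In the endoplasmic reticulum 14 of 24 genes of the unfolded protein response rose and 2 fell (1 without ISO day 1 replicate 1 or 3, or ISO baseline replicate 3 or 4), among them the transcription factor gene Xbp1 (1.72, SE 0.12) and the secreted factor gene Manf (1.26, SE 0.19), while Herpud1 fell (-0.93, SE 0.24). Of 25 genes of iron and haem 12 rose and 6 fell (3 without ISO day 1 replicate 3). Erythroid markers, which share 1 gene with that list, summed to 138 to 388 CPM at ISO day 1 and 502 to 900 CPM at ISO baseline. Of 6 such markers 4 fell, but 0 without ISO day 1 replicate 2 or ISO baseline replicate 4 or with robust fitting, 1 without ISO baseline replicate 2 or 3 and 2 without ISO day 1 replicate 1, and the part of red cells in the iron list was not tested. Hmox1, haem oxygenase 1, had 109, 160 and 59.9 CPM at ISO day 1 and 4.89, 4.61, 5.37 and 5.05 CPM at ISO baseline (4.46, SE 0.42, adjusted p = 3.37e-09), and the ferritin light chain Ftl1 rose (1.37, SE 0.12) while the heavy chain Fth1 was not called (0.11, SE 0.08). Steap3, an iron reductase, fell (-2.07, SE 0.11).

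Transcription factors of the immediate early class, which respond to stimuli without new protein synthesis, were above baseline 1 day after the drug: 23 of 27 rose and 0 fell (median 1.71). Fos had 21.9, 20.8 and 14.7 CPM at ISO day 1 and 0.63, 1.75, 2.81 and 4.59 CPM at ISO baseline (2.96, SE 0.44, adjusted p = 3.70e-06). Its partner Junb (2.66, SE 0.24) and its relative Fosl2 (1.97, SE 0.22) rose. Jun was not called (-0.28, SE 0.14), but was when only the 7 libraries of the comparison were fitted (edgeR, adjusted p = 0.00274). Egr2 had 7.42, 8.44 and 7.497 CPM at ISO day 1 and 0.519, 0.679, 0.593 and 0.949 CPM at ISO baseline (3.50, SE 0.48), and Maff, a small Maf protein, had 49.9, 54.3 and 38.8 CPM at ISO day 1 and 4.45, 3.98, 4.45 and 4.86 CPM at ISO baseline (3.42, SE 0.16). Regulators of cell death rose in 20 of 30 genes and fell in 6, with both death-promoting and protective genes among those that rose. Ripk3, a kinase of necroptosis, had 5.22, 6.47 and 4.54 CPM at ISO day 1 and 1.04, 1.07, 0.593 and 1.22 CPM at ISO baseline (2.47, SE 0.29, adjusted p = 1.21e-07), and its substrate gene Mlkl rose (0.86, SE 0.21). The death receptor gene Tnfrsf10b had 6.81, 7.56 and 5.54 CPM at ISO day 1 and 1.56, 1.21, 1.74 and 1.78 CPM at ISO baseline (2.07, SE 0.21). Bcl2l1, which codes for the protective protein BCL-XL, rose too, with 94.97, 111 and 95.6 CPM at ISO day 1 and 32.99, 26.4, 34.6 and 29.98 CPM at ISO baseline (1.70, SE 0.16), whereas the death-promoting gene Bcl2l11 fell (-1.17, SE 0.14). Stress-response relatives moved apart, Gadd45g with 105, 108 and 78.2 CPM at ISO day 1 and 12.3, 7.95, 8.07 and 7.17 CPM at ISO baseline (3.45, SE 0.22) and Gadd45a with 3.54, 4.29 and 2.21 CPM at ISO day 1 and 14.9, 13.2, 13.04 and 13.9 CPM at ISO baseline (-2.03, SE 0.16).

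Clock genes and genes that respond to glucocorticoids stood apart from baseline. Of 19 clock genes 8 rose and 9 fell. Dbp, an output gene of the clock with a strong daily rhythm, had 7.72, 9.39 and 17.1 CPM at ISO day 1 and 74.7, 72.4, 107 and 70.2 CPM at ISO baseline (-2.84, SE 0.29, adjusted p = 1.56e-08), and its relative Hlf had 6.81, 6.64 and 7.29 CPM at ISO day 1 and 22.8, 24.2, 36.1 and 25.2 CPM at ISO baseline (-1.97, SE 0.24). Arntl, which codes for BMAL1, was higher (1.36, SE 0.31), with 19.5, 19.2 and 15.1 CPM at ISO day 1 and 8.27, 7.27, 4.41 and 7.97 CPM at ISO baseline, and Cry1 rose (1.42, SE 0.19). The hour at which hearts were taken is not given in the sources used here, and its part in these values was not tested. Of 19 glucocorticoid-responsive genes 12 rose and 4 fell (median 1.28). Fkbp5, a feedback regulator of the glucocorticoid receptor, had 174, 193 and 166 CPM at ISO day 1 and 17.3, 11.6, 18.1 and 19.5 CPM at ISO baseline (3.41, SE 0.31, adjusted p = 1.82e-09), and Zbtb16 rose (1.72, SE 0.23). Tsc22d3, another classical target, was not called (0.21, SE 0.16).

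Secreted signals changed in both directions. Of 32 genes for growth factors and their negative regulators 12 rose and 13 fell (median 0.11). Hbegf, a ligand of the epidermal growth factor receptor, had 98.8, 139 and 65.3 CPM at ISO day 1 and 12.3, 12.6, 13.5 and 11.6 CPM at ISO baseline (3.01, SE 0.40, adjusted p = 6.43e-07), and Ereg, another such ligand, had 7.203, 11.9 and 5.25 CPM at ISO day 1 and 0.185, 0, 0.0741 and 0.114 CPM at ISO baseline (6.30, SE 0.59). The neuregulin gene Nrg2 fell (-3.99, SE 0.31), and so did its receptor gene Erbb4 (-1.20, SE 0.15). Pgf, placental growth factor, had 32.8, 35.5 and 24.3 CPM at ISO day 1 and 1.74, 1.84, 2.15 and 2.35 CPM at ISO baseline (3.93, SE 0.24), while its relatives Vegfa (-0.81, SE 0.10) and Vegfb (-0.41, SE 0.08) were lower. Fgf16, a growth factor of cardiomyocytes, had 1.77, 2.25 and 1.999 CPM at ISO day 1 and 11.97, 12.9, 9.59 and 11.8 CPM at ISO baseline (-2.52, SE 0.14). In the interleukin-6 family, which signals through the shared receptor chain gp130, 11 of 17 tested genes rose and 3 fell. Clcf1 had 11.04, 16.1 and 8.997 CPM at ISO day 1 and 0.741, 1.02, 0.926 and 1.404 CPM at ISO baseline (3.56, SE 0.32), and Osmr, the oncostatin M receptor, had 68.7, 83.2 and 66.6 CPM at ISO day 1 and 13.1, 12.3, 12.4 and 14.3 CPM at ISO baseline (2.49, SE 0.15). Il6 had 54 reads over the 3 treated hearts and 0 over the 4 untreated ones, at least 23.4-fold higher when 3 counts are taken as the limit for the group at 0. Cardiotrophin 1, Ctf1, fell (-1.76, SE 0.20), and so did the receptor Lifr (-0.99, SE 0.10). Genes of interleukin 1 and tumour necrosis factor signalling rose in 19 of 24 and fell in 1 (median 1.48, or 1.43 with 1 gene at its bound). Tnfrsf12a, the receptor of the cytokine TWEAK, had 174, 199 and 166 CPM at ISO day 1 and 18.4, 14.98, 14.2 and 22.4 CPM at ISO baseline (3.36, SE 0.33, adjusted p = 8.99e-09), and Ptgs2, the inducible cyclooxygenase, had 6.51, 7.32 and 5.04 CPM at ISO day 1 and 0.111, 0.63, 0.4445 and 1.02 CPM at ISO baseline (3.51, SE 0.46).

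More than 1 in 2 matrix genes of wound repair rose, whereas more collagen genes fell than rose. Of 32 wound-matrix genes 18 rose and 2 fell (median 0.95), whereas of 24 collagen genes 6 rose and 10 fell (median -0.53). The summed level of the collagen list was nevertheless higher, at 4890 to 5561 CPM at ISO day 1 and 1957 to 2540 CPM at ISO baseline. Col4a1, given below, was a large part of that sum. Fibroblast markers summed to 1225 to 1493 CPM at ISO day 1 and 2104 to 2164 CPM at ISO baseline, with 3 of 10 higher and 4 lower. Markers of activated fibroblasts summed to 544 to 835 CPM at ISO day 1 and 192 to 263 CPM at ISO baseline. Of 9 tested, 4 rose and 2 fell (median 0.39), and Acta2 among them is also a smooth muscle marker. The part of either fibroblast list in the matrix lists was not tested. Lox, which cross-links collagen, had 94.1, 110.2 and 108 CPM at ISO day 1 and 2.96, 2.13, 3.33 and 3.26 CPM at ISO baseline (5.14, SE 0.49, adjusted p = 4.27e-09). Thbs1, thrombospondin 1, had 207, 234 and 157 CPM at ISO day 1 and 8.12, 9.07, 6.11 and 11.2 CPM at ISO baseline (4.53, SE 0.37), and the adhesion modulator Tnc had 36.96, 36.9 and 24.4 CPM at ISO day 1 and 1.15, 1.46, 0.815 and 1.37 CPM at ISO baseline (4.79, SE 0.71). Prg4, which codes for lubricin, a lubricating proteoglycan, had 712, 737 and 643 CPM at ISO day 1 and 10.01, 9.55, 12.96 and 11.7 CPM at ISO baseline (5.97, SE 0.16, adjusted p = 1.49e-17). Among collagens, the basement membrane pair Col4a1 and Col4a2 rose, Col4a1 with 2376, 2585 and 2147 CPM at ISO day 1 and 502, 571, 467 and 622 CPM at ISO baseline (2.13, SE 0.18) and Col4a2 at 2.02, SE 0.14. The other 4 chains of that family fell, from Col4a4 (-1.84, SE 0.22) to Col4a5 (-0.88, SE 0.17). Fibrillar Col1a1 (-0.14, SE 0.41) and Col3a1 (-0.79, SE 0.45) were not called, although Col3a1 was when only the 7 libraries of the comparison were fitted (adjusted p = 4.34e-05). The genes Col15a1 (-2.11, SE 0.23) and Col14a1 (-2.58, SE 0.33) fell. Proteases and their inhibitors rose in 14 of 24 genes and fell in 6. Timp1, an inhibitor of metalloproteases, had 36.8, 40.6 and 30.03 CPM at ISO day 1 and 0.8525, 0.824, 0.778 and 1.02 CPM at ISO baseline (5.35, SE 0.39, adjusted p = 6.60e-11), Adamts4, an aggrecanase, had 43.7, 41.4 and 19.6 CPM at ISO day 1 and 0.704, 1.31, 0.111 and 0.797 CPM at ISO baseline (5.63, SE 0.50) and Mmp3, stromelysin, rose (4.31, SE 0.23).

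Most genes of clotting were higher, and genes of vessel activation were divided. Of 20 tested genes of coagulation and fibrinolysis 13 rose and 3 fell (median 1.35). Plaur, the urokinase receptor, had 32.3, 33.1 and 21.4 CPM at ISO day 1 and 0.445, 1.36, 0.852 and 1.101 CPM at ISO baseline (4.97, SE 0.30, adjusted p = 2.48e-12). Plat, the tissue activator, rose as well (1.89, SE 0.12). Of 26 genes of endothelial activation and vessel growth 12 rose and 7 fell (median 0.27). Adhesion molecules that capture leukocytes on endothelium were among those that rose. Icam1 had 170.4, 134 and 90.1 CPM at ISO day 1 and 7.12, 10.1, 7.67 and 8.58 CPM at ISO baseline (3.98, SE 0.18), Selp had 14.1, 17.7 and 6.58 CPM at ISO day 1 and 0.2965, 0.097, 0.296 and 0.228 CPM at ISO baseline (5.73, SE 0.44) and Sele had 17.4, 16.9 and 8.497 CPM at ISO day 1 and 0.89, 1.26, 0.519 and 1.06 CPM at ISO baseline (3.95, SE 0.36). The apelin receptor gene Aplnr fell, with 2.93, 3.27 and 2.29 CPM at ISO day 1 and 26.6, 33.9, 23.3 and 32 CPM at ISO baseline (-3.34, SE 0.28, adjusted p = 4.65e-10), and so did Angpt1 (-2.14, SE 0.27) and its receptor Tek (-0.71, SE 0.11). Kdr, the main receptor of vascular endothelial growth factor, was not called (0.06, SE 0.09), and the endothelial identity genes Pecam1 (0.84, SE 0.07) and Cldn5 (1.81, SE 0.25) were higher. Of 10 endothelial markers 5 rose and 2 fell. Their summed level was 1687 to 1868 CPM at ISO day 1 and 998 to 1088 CPM at ISO baseline, of which Fabp4 was a large part (879, 765 and 748 CPM at ISO day 1 and 222, 238, 241 and 256 CPM at ISO baseline).

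Markers of leukocytes changed while the labelled tissue stayed recognizable. Cardiomyocyte markers summed to 53463 to 72134 CPM at ISO day 1 and 77363 to 82810 CPM at ISO baseline, and 7 of the 9 fell. Neutrophil markers summed to 16.2 to 26.1 CPM at ISO day 1 and 2.45 to 3.15 CPM at ISO baseline, and 9 of 11 tested rose with 0 lower (median 5.90, or 4.79 with 1 gene at its bound). Ly6g and Camp had too few reads to be tested. S100a8, an abundant neutrophil protein gene, had 133 reads over the treated hearts and 2 over the untreated ones, or 86.6 times as many for their depth (exact 95% interval from counting, 23.5 to 722). Il1r2, a decoy receptor of interleukin 1, had 212 reads at ISO day 1 and 1 at ISO baseline, a ratio of 276 (49 to 10954). Of 13 monocyte and recruited macrophage genes 7 rose and 1 fell, but not the receptor that defines inflammatory monocytes, Ccr2, with 0.8195, 0.613 and 0.75 CPM at ISO day 1 and 1.04, 0.873, 0.4445 and 1.22 CPM at ISO baseline (-0.30, SE 0.41). Chil3 had 158 reads at ISO day 1 and 0 at ISO baseline, at least 68.6-fold higher, and Arg1 had 206 reads at ISO day 1 and 3 at ISO baseline, a ratio of 89.4 (30.2 to 437). Ccl2, the ligand of Ccr2, had 15.96, 12.8 and 8.16 CPM at ISO day 1 and 0.63, 0.97, 0.37 and 0.949 CPM at ISO baseline (4.09, SE 0.38), and Cxcl5, an attractant of neutrophils, had 7.81, 5.45 and 1.29 CPM at ISO day 1 and 0.148, 0.194, 0 and 0.0759 CPM at ISO baseline (5.54, SE 0.85). Of 14 resident macrophage genes 9 fell and 2 rose (median -0.58). Cx3cr1 had 0.431, 0.306 and 0.4165 CPM at ISO day 1 and 5.78, 6.303, 3.67 and 6.22 CPM at ISO baseline (-3.83, SE 0.33, adjusted p = 9.99e-10) and Timd4 (-2.16, SE 0.37), Cbr2 (-2.43, SE 0.17) and Adgre1 (-1.92, SE 0.37) fell, whereas Lyve1, with 21.6, 28.5 and 25.9 CPM at ISO day 1 and 12.8, 11.5, 13.7 and 13.2 CPM at ISO baseline (0.98, SE 0.13), and the haemoglobin scavenger Cd163 (0.80, SE 0.18) rose. T and NK cell markers were scarce, at 0.875 to 1.4 CPM summed at ISO day 1 and 1.6 to 3.34 CPM at ISO baseline. Of 11 tested 5 fell and 0 rose (median -1.99, or -1.12 with 2 genes at their bound), but 2 fell without ISO day 1 replicate 1 or 3, 3 without ISO baseline replicate 1, and 1 when only the 7 libraries of the comparison were fitted. B cell markers summed to 1.17 to 1.81 CPM at ISO day 1 and 6.15 to 8.53 CPM at ISO baseline, and 2 of 5 tested fell. Genes of Schwann cells and nerves fell in 8 of 9 tested members (in 4 without ISO day 1 replicate 1, and in 5 without ISO baseline replicate 2 or 4), among them Mbp, a myelin gene (-1.29, SE 0.21), and the exception was Cryab, which cardiomyocytes also express. Of 4 tested platelet markers 2 rose, the secreted factors Pf4 (1.67, SE 0.17) and Ppbp (4.33, SE 0.54), while Itga2b and Gp1bb were not called. Gp9, Gp6 and Treml1 had too few reads to be tested. The part that incoming cells play in the inflammatory, matrix and clotting lists was not tested.

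**Figure D4:**
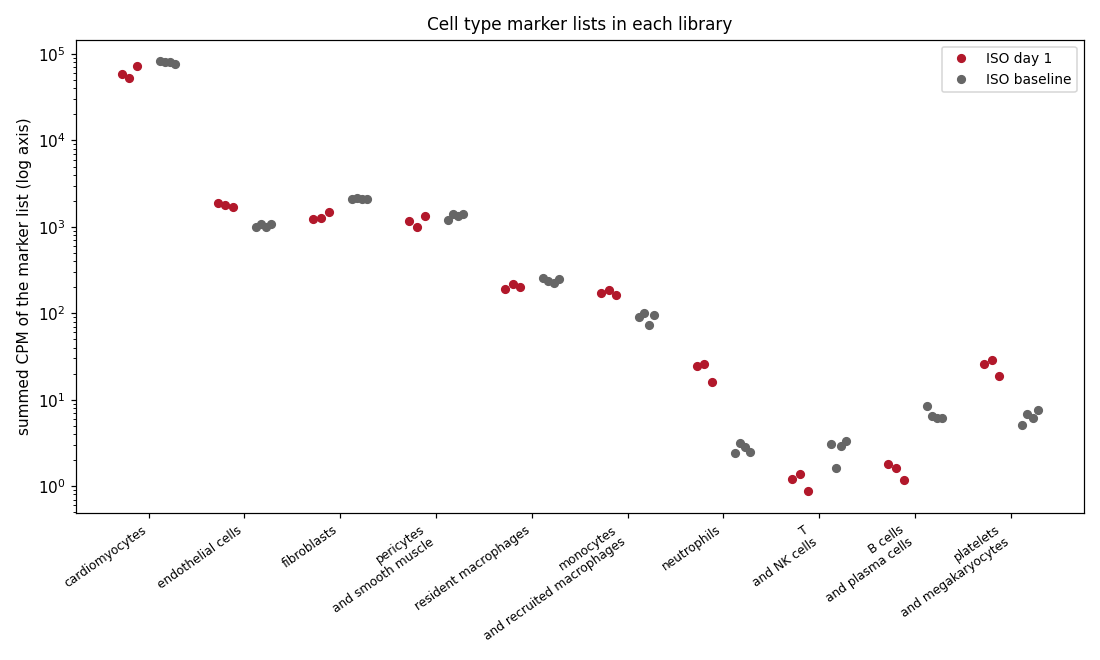
Summed CPM of 10 cell type marker lists in each library (log axis), ISO day 1 libraries to the left (red) and ISO baseline libraries to the right (grey) within each list. Neutrophil markers sum to 16.2 to 26.1 CPM at ISO day 1 and 2.45 to 3.15 CPM at ISO baseline, cardiomyocyte markers to 53463 to 72134 CPM at ISO day 1 and 77363 to 82810 CPM at ISO baseline, and resident macrophage markers to 193 to 216 CPM at ISO day 1 and 226 to 253 CPM at ISO baseline.

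Whether a change differed from that after LPS was tested by the interaction of agent and time, each arm against its own baseline. It was called for 37.6% of genes, 19.5% higher after isoproterenol relative to LPS and 18.2% lower. The wound-matrix list had 18 of 32 genes higher after isoproterenol and 1 lower, and the unfolded protein response had 15 of 24 higher and 0 lower. Chaperones had 17 of 26 higher and 3 lower. Thbs1 changed by 4.53 after isoproterenol and -0.46 after LPS (interaction 4.99, adjusted p = 7.66e-08). The chemokine Ccl6 changed by 2.76 after isoproterenol and -2.79 after LPS (5.56, adjusted p = 5.81e-12). Hsph1 rose after isoproterenol (1.85) and fell after LPS (-1.16), with an interaction of 3.01 (adjusted p = 3.46e-11). Slc8a1 also differed, at 0.82 after isoproterenol and -0.87 after LPS (interaction 1.69). On the other side, all 30 interferon-stimulated genes and 17 of 20 MHC genes were lower after isoproterenol relative to LPS. Their median log2 changes after LPS were 4.07 and 2.20. Against ISO baseline 23 of the 30 interferon-stimulated genes fell and 0 rose (median -0.92). Of the 20 MHC genes 15 fell and 0 rose (median -1.33). Ccl5 stood at -2.78 after isoproterenol and 7.48 after LPS (interaction -10.25, adjusted p = 1.11e-09). Its fall after isoproterenol was not called with limma-voom (-2.31, adjusted p = 0.051). Branched-chain amino acid catabolism was lower relative to LPS in 20 of 22 genes. Tcap fell by 2.60 after isoproterenol and stood at 0.17 after LPS (-2.77, adjusted p = 5.81e-12). Its untreated level was not alike in both arms, at 1257 CPM at ISO baseline and 674 CPM at LPS baseline. Nampt, the rate-limiting enzyme of the NAD salvage pathway, had -1.56 after isoproterenol and 1.56 after LPS (-3.13, adjusted p = 8.55e-13). The ubiquitin ligases of muscle atrophy parted as well, Fbxo32 at -0.80 and 1.28 (-2.08) and Trim63 at -0.41 and 0.95 (-1.36). Resident macrophage Cx3cr1 was lower after each agent and less so after isoproterenol (-3.83 and -7.09, interaction 3.25, adjusted p = 0.00301), a call lost on log2(TPM + 0.1), at 0.91, and on log2(TPM + 1), at 0.10. Its mean level was 0.031 CPM at LPS day 1 and 0.385 CPM at ISO day 1, so near the floor that the size of this difference is uncertain. For other changes described above the interaction was not called, among them Mt1 (4.34 and 4.41; -0.07, SE 0.26), Pdk4 (4.42 and 4.36; 0.06, SE 0.62), Ankrd1 (3.46 and 3.32; 0.14, SE 0.37) and Pln (-1.25 and -1.29; 0.04, SE 0.17), which does not show that they were equal. The agents also differ in dose and in kind, so the tests compare these treatments as given.

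**Figure D5:**
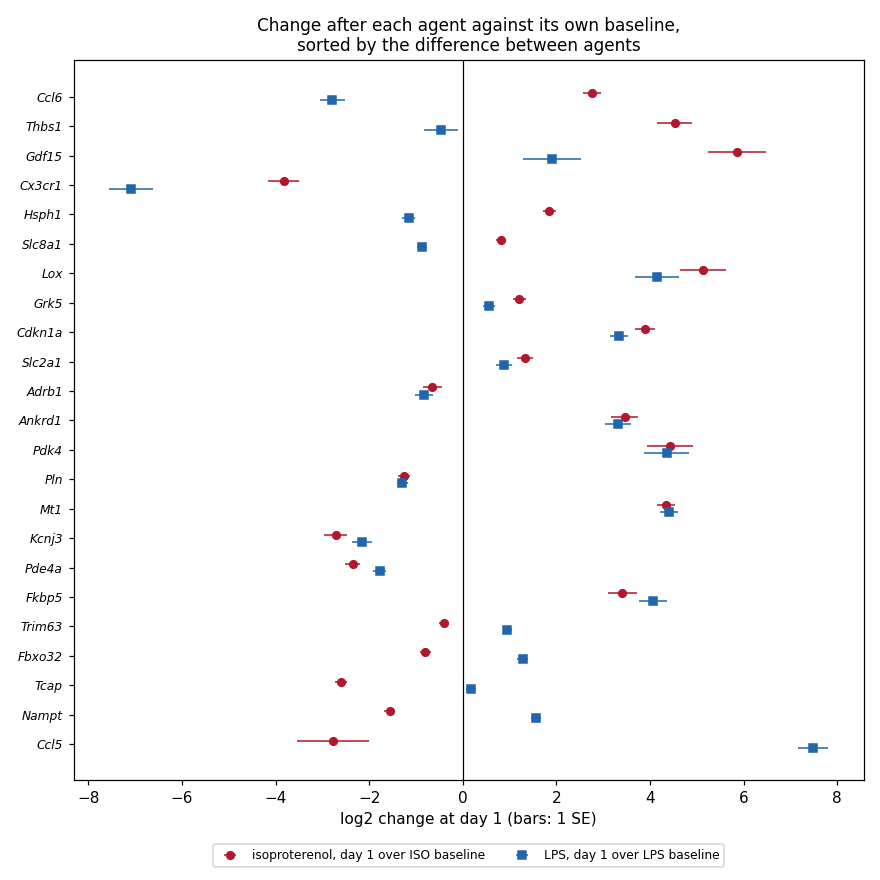
Log2 change on day 1 against the own baseline after isoproterenol (red circles) and after LPS (blue squares), with bars of 1 SE derived from the F statistic, for 23 genes sorted by their interaction. Genes at the top, such as Ccl6 (2.76 after isoproterenol and -2.79 after LPS), are higher after isoproterenol relative to LPS, and Ccl5 at the bottom is the lowest (-2.78 and 7.48).

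At day 7 of the same arm 1 of 15732 genes passed the test against ISO baseline. Mt1, Ankrd1, Pdk4 and Lox stood at 0.10, 0.57, -0.07 and 1.58 on the log2 scale at day 7 over ISO baseline, and none of these was called.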

How the data were processed

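Hearts were profiled by polyadenylated RNA sequencing, 1 library per heart. Per the file headers, the authors deposited estimated counts of reads per gene, TPM and effective gene length for each library. Tools listed in the submitters' processing notes are bcl2fastq and DRAGEN as well as limma and edgeR, and the build is mm10. Whether counting used strand, and with which annotation, is not given in the sources used here, so reads of overlapping or antisense genes cannot be told apart. Of 55487 gene identifiers 55227 matched GENCODE M21, which gave symbols. Replicates are separate mice, numbered per group.

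Estimated counts, of which 9.5% were not whole, were rounded. Genes passed edgeR's filterByExpr (minimum count 10). All 6 groups were fitted with edgeR 4.0.16 in R 4.3.3 (quasi-likelihood, TMM), with Benjamini-Hochberg adjustment at 0.05. A minimum-fold test used 1.5. The agent comparison was the interaction of agent and time. TPM were used to describe levels and, in alternatives, on log2(TPM + 0.1) and log2(TPM + 1) with limma 3.58.1; DESeq2 1.42.0 was another. On simulated data of 15732 genes, 67, 67 and 66 genes were changed by 1.5-fold, 2-fold and 4-fold, and the test recovered 70.1%, 94% and 97% of them. The changed genes were drawn once, from those with a mean above 1 CPM. They were far fewer than the genes called in the real data, so the rates need not hold there. For genes with 3 reads or fewer in a group, read ratios carry exact counting intervals, which cover counting error only, or lower bounds. With 3 against 4 libraries an exact permutation test cannot go below 0.0286, so single values were not tested that way.

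Lists and genes were chosen with earlier results of these data known. Named are the largest changes, gains and losses, up to 6 called members per list, a panel, and genes that varied or differed most between agents. A further 53 genes were named after their values were seen, to show a family or an exception. Some genes are not reported here.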

Additional observations from a re-analysis of the deposited data

Results flagged for a closer look

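Within the 4 ISO baseline hearts, 12 of 217 genes screened had 1 library far from the other 3. The gap to its nearest neighbour was past Dixon's 95% critical share of the whole range, which chance gives in about 1 gene in 20. ISO baseline replicate 1 stood apart at 362 CPM for Abcc9 (others 426 to 439 CPM), 142 CPM for Mt1 (others 119 to 122 CPM) and 60.2 CPM for Psmd11 (others 53.5 to 54.5 CPM). ISO baseline replicate 2 stood apart at 0.0485 CPM for Il1r2 (others 0 CPM). ISO baseline replicate 3 stood apart at 107 CPM for Dbp (others 70.2 to 74.7 CPM), 0.0741 CPM for S100a8 (others 0 CPM) and 9.15 CPM for Srm (others 9.82 to 9.84 CPM). ISO baseline replicate 4 stood apart at 7.67 CPM for Angptl4 (others 1.26 to 1.89 CPM), 4.52 CPM for Atf3 (others 2.60 to 2.91 CPM), 123 CPM for Kcnh2 (others 136 to 137 CPM), 40954 CPM for Myh6 (others 44481 to 44691 CPM) and 52.6 CPM for Odc1 (others 49.1 to 49.6 CPM). For Il1r2 and S100a8 these levels rest on 1 and 2 reads. Leaving out ISO baseline replicate 4 moved the log2 change of Angptl4 to 6.11, against 5.06 with it, and no call of these 12 genes was lost when their outlying library was left out.

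The day 1 change differed between the agents for 10 genes named in the report, by edgeR's test of the interaction of agent and time. The log2 change after isoproterenol minus that after LPS was 5.56 for Ccl6, 4.99 for Thbs1, 3.25 for Cx3cr1, 3.01 for Hsph1 and 1.69 for Slc8a1. On the other side it was -10.25 for Ccl5, -3.13 for Nampt, -2.77 for Tcap, -2.08 for Fbxo32 and -1.36 for Trim63. They were picked to illustrate lists or for the size of this difference, among 37.6% of all genes with a called interaction.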

How the results depend on the processing

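The count of 10332 genes called at ISO day 1 lay between 8803 (log2(TPM + 1) with limma) and 10824 (ISO and LPS baselines pooled) over 16 other choices of normalization, filter, tool, unit and libraries, and between 9426 and 10022 when each library was left out in turn. With the replicate block it was 10254, of which 10091 were called without it, and 9916 with the block in the ISO day 1 and ISO baseline libraries alone. The count of 4210 genes changed by more than 1.5-fold was 4165 with the block and ranged from 3674 to 4287 without single libraries. The count of 5923 genes that differed between agents was 5920 with the block, ranged from 5181 to 6024 without single libraries, and was lowest at 4399 on log2(TPM + 0.1). Same-numbered treated and untreated hearts deviated together only weakly (correlations -0.02, 0.08 and 0.06), so the numbers were not taken as pairs. The median log2 change of all genes stayed between -0.04 (library totals) and 0.04 (log2(TPM + 0.1)). Of 217 genes named, 7 lost a call under at least 1 of 23 alternatives, and 1 reversed: Myl7 stood at -0.51 without ISO day 1 replicate 3 and at 4.61 without replicate 2, and its call was also lost with limma-voom (1.17) and on TPM. For Postn the call was lost with the 3 ISO groups fitted alone (1.72). A call was gained for 9 genes: Pde4d, Col3a1, Jun, Mki67, Ppargc1a and Slc30a1 as given in the report, Ddit3 (0.33, adjusted p = 0.022) and Fth1 (0.23, adjusted p = 0.0192) with ISO and LPS baselines pooled, and Tsc22d3 (0.20, adjusted p = 0.0233) with the replicate block in the ISO day 1 and ISO baseline libraries alone. Each other loss is given in the report, and the causes were not tested. DESeq2 gave no adjusted p for 3 genes. Counts of list members called in 1 direction moved by over 1.5 times in 117 of their recomputed values and held in 3057.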

Other observations

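Antioxidant genes under the factor NRF2 rose in 20 of 28 and fell in 3. Txnrd1, thioredoxin reductase, had 385, 485 and 246 CPM at ISO day 1 and 71.9, 52.9, 44.8 and 54.9 CPM at ISO baseline (2.73, SE 0.20 on the log2 scale), and Gsr, glutathione reductase, had 49.99, 58.6 and 38.4 CPM at ISO day 1 and 20.9, 16.6, 16.9 and 17.9 CPM at ISO baseline (1.44, SE 0.11). The mitochondrial superoxide dismutase gene Sod2 went against them (-0.39, SE 0.10). Genes of NAD metabolism fell in 11 of 19 and rose in 6. The sirtuin gene Sirt3 (-1.17, SE 0.08) and the repair enzyme gene Parp1 (-1.32, SE 0.07) were lower, while Bst1, a surface enzyme that consumes NAD, had 1.47, 2.08 and 2.08 CPM at ISO day 1 and 0.2965, 0.388, 0.185 and 0.4175 CPM at ISO baseline (2.55, SE 0.33). Hypoxia-inducible genes were split, with 9 of 22 higher and 8 lower. Car9, a carbonic anhydrase, had 0.518, 1.43 and 1.58 CPM at ISO day 1 and 0.0371, 0.1455, 0 and 0.152 CPM at ISO baseline (3.81, SE 0.64), whereas the prolyl hydroxylase gene Egln1 fell (-0.68, SE 0.08).

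Of protein-coding genes 34.4% were called higher and 34.4% lower. Antisense genes (17.6% higher and 23.3% lower, median -0.14) and transcripts of the class TEC (24.5% higher and 20.1% lower, median 0.05) were also closer to balance than the classes that follow. Of 338 tested genes for long intergenic noncoding RNAs 54 were higher and 136 lower (median -0.52), and of 632 processed pseudogenes 194 were higher and 56 lower (median 0.32). Processed pseudogenes share sequence with their parent genes, so how the authors' counting split such reads is uncertain. Activated fibroblast markers also parted. Postn, a matricellular protein gene, had 61.9, 68.8 and 77.3 CPM at ISO day 1 and 19.8, 23.9, 15.97 and 24.7 CPM at ISO baseline (1.72, SE 0.58), while Comp had 0.302, 0.136 and 0.875 CPM at ISO day 1 and 5.004, 3.78, 2.89 and 3.95 CPM at ISO baseline (-3.19, SE 0.50). Of smooth muscle genes Acta2 was higher (1.59, SE 0.21) and Myh11 lower (-1.30, SE 0.13).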
